A study of Mus musculus with 10 samples.

Results

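The genes described here are the collagen chains outside the cartilage set, together with the enzymes and the chaperone that fold and crosslink them. They were chosen by gene symbol from the deposited count table. All 42 were found, among 23358 rows. They comprise 30 chains and 12 enzymes and chaperone genes. A total of 41 passed the filter on low counts. The exception was Col13a1, which was listed at 0 in 3 of the 6 libraries.

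The cells were MC3T3, an established mouse calvarial pre-osteoblast line that lays down and mineralizes a collagen matrix in osteogenic medium. The treated cells received 5 µM GSK126, a small-molecule inhibitor of the H3K27 methyltransferase EZH2, and the control cells received vehicle, both in medium holding beta glycerol phosphate and ascorbic acid. Compound or vehicle was given at the start, given again 3 days later and withdrawn on day 6. Each treatment gave 1 RNA library on each of days 3, 6 and 10, and H3K27me3 chromatin and its input were sequenced 24 hours after the first dose, with 1 library of each kind per treatment. All libraries therefore come from the same cell line, and nothing in the labels says that they came from independent cultures, so that the p-values reflect no more than how far these libraries differ from each other, which may be technical.

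Collagen chains are made in the endoplasmic reticulum, where prolyl hydroxylases make the helix stable, lysyl hydroxylases prepare the sites of later crosslinks, and the chaperone Serpinh1 binds the folded procollagen. Outside the cell, lysyl oxidases oxidize lysine and hydroxylysine residues, which then form covalent crosslinks between molecules. In bone, fibrils of type I collagen are the main organic component on which mineral is deposited, and ascorbic acid is a cofactor of the hydroxylases.

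Collagen transcripts were a large part of the RNA in every library. The 42 genes held 8.88% (day 3), 10% (day 6) and 9.35% (day 10) of all gene counts with GSK126, against 9.45%, 10.4% and 8.21% with vehicle. Col1a1 and Col1a2 alone made up 5.81%, 7.17% and 6.81% with GSK126, against 6.17%, 6.77% and 5.33% with vehicle. With GSK126 the share of all 42 genes was lower on days 3 and 6 and higher on day 10, and that of Col1a1 and Col1a2 was lower on day 3 and higher on days 6 and 10. Ranked by RPKM (deposited reads per kilobase, scaled to the library total), Col1a1 stood at rank 2, 2 and 3 with GSK126 on days 3, 6 and 10, against 2, 2 and 4 with vehicle. Libraries held 97291878 to 111537936 counts, and the ribosomal RNA precursor Rn45s took 4.37% to 7.47% of them. In bulk RNA, fewer cells making a transcript and less transcript per cell cannot be told apart. The 8 osteoblast markers together stood at 1363, 3652 and 5813 CPM (library-scaled counts, TMM-normalized) with GSK126, against 835, 1169 and 2226 CPM with vehicle. None of them was at 0 in all libraries. Ibsp was the largest part with GSK126, at 533, 1974 and 3468 CPM, against 176, 409 and 546 CPM with vehicle. Spp1 stood at 278, 943 and 1324 CPM with GSK126, against 279, 317 and 1227 CPM with vehicle. Markers of endothelial, adipocyte, muscle and epithelial cells summed to at most 0.806 CPM per list in any library. Blood cell markers summed to 12.9, 20.6 and 14.6 CPM with GSK126, against 8.38, 10.8 and 19.8 CPM with vehicle, most of it Lyz2. Their part in the collagen differences was not tested.

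Averaged over the 3 days, no collagen gene passed the threshold for GSK126 against vehicle in either direction. Differences were tested across all genes with edgeR's quasi-likelihood test on day and treatment, at a Benjamini-Hochberg adjusted p below 0.05. Of the 41 genes tested, 0 were called higher and 0 lower, where 1.01% of all 14344 genes tested were called higher and 0.272% lower. At such shares, 0 calls among 41 genes say little. The lowest adjusted p was 0.0639 (P4ha3). At an unadjusted p below 0.05, 9 were higher (22%) and 11 lower (26.8%), where 9.86% and 9.75% of all genes were. limma-voom called 0 in either direction, where it called 1.38% of all genes higher and 0.411% lower. DESeq2, with the same model, called 2 higher (Col11a1 and P4ha2) and 7 lower (Col3a1, Col6a1, Col6a2, Col6a3, Col12a1, Col16a1 and P4ha3), where it called 4.8% of all genes higher and 4.43% lower. The median fitted log2 difference was 0.0685 over the 41 genes and -0.000763 over all genes tested.

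**Figure D1:**
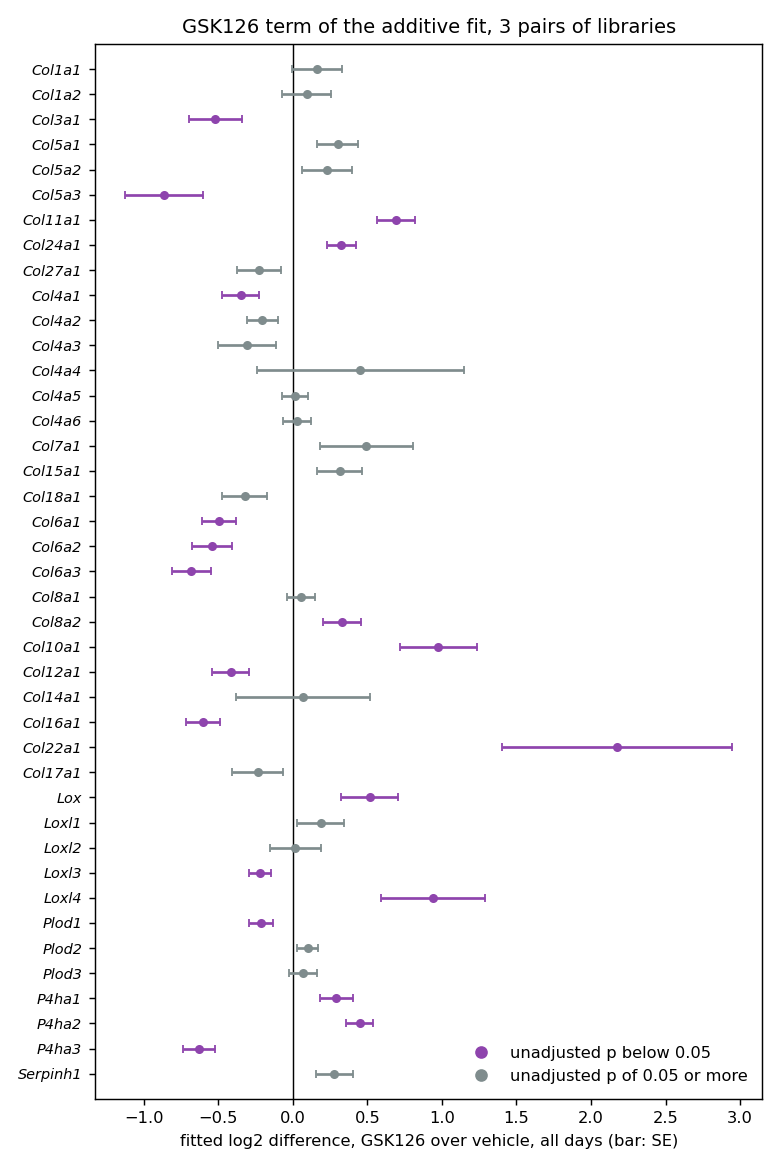
Fitted log2 difference of GSK126 over vehicle (x axis) for the 41 collagen genes tested (rows), as a point with its SE as a bar, from 3 pairs of libraries; purple marks an unadjusted p below 0.05. The values run from -0.86 (Col5a3) to 2.17 (Col22a1), and 25 of the 41 lie above 0.

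Within single days the genes diverged more as culture went on. The median absolute log2 ratio of GSK126 over vehicle was 0.166 on day 3, 0.391 on day 6 and 0.541 on day 10 over the collagen genes, against 0.121, 0.23 and 0.232 over all genes tested. A ratio past 2-fold, with at least 1 CPM in either library, was found upward in 0 of 38 genes on day 3, in 2 of 38 on day 6 (5.26%) and in 6 of 40 on day 10 (15%). The shares over all genes were 1.51%, 4.15% and 3.07%. A ratio past 2-fold downward was found in 0, 0 and 1 gene (2.5% on day 10), where the shares over all genes were 0.162%, 2.06% and 2.44%. The ratio was above 0 on all 3 days in 8 of the 41 genes (19.5%, and 22.1% of all genes) and below 0 on all 3 days in 13 (31.7%, and 22.7% of all genes). These are ratios of 1 library to 1 library, with no replicate check.

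**Figure D2:**
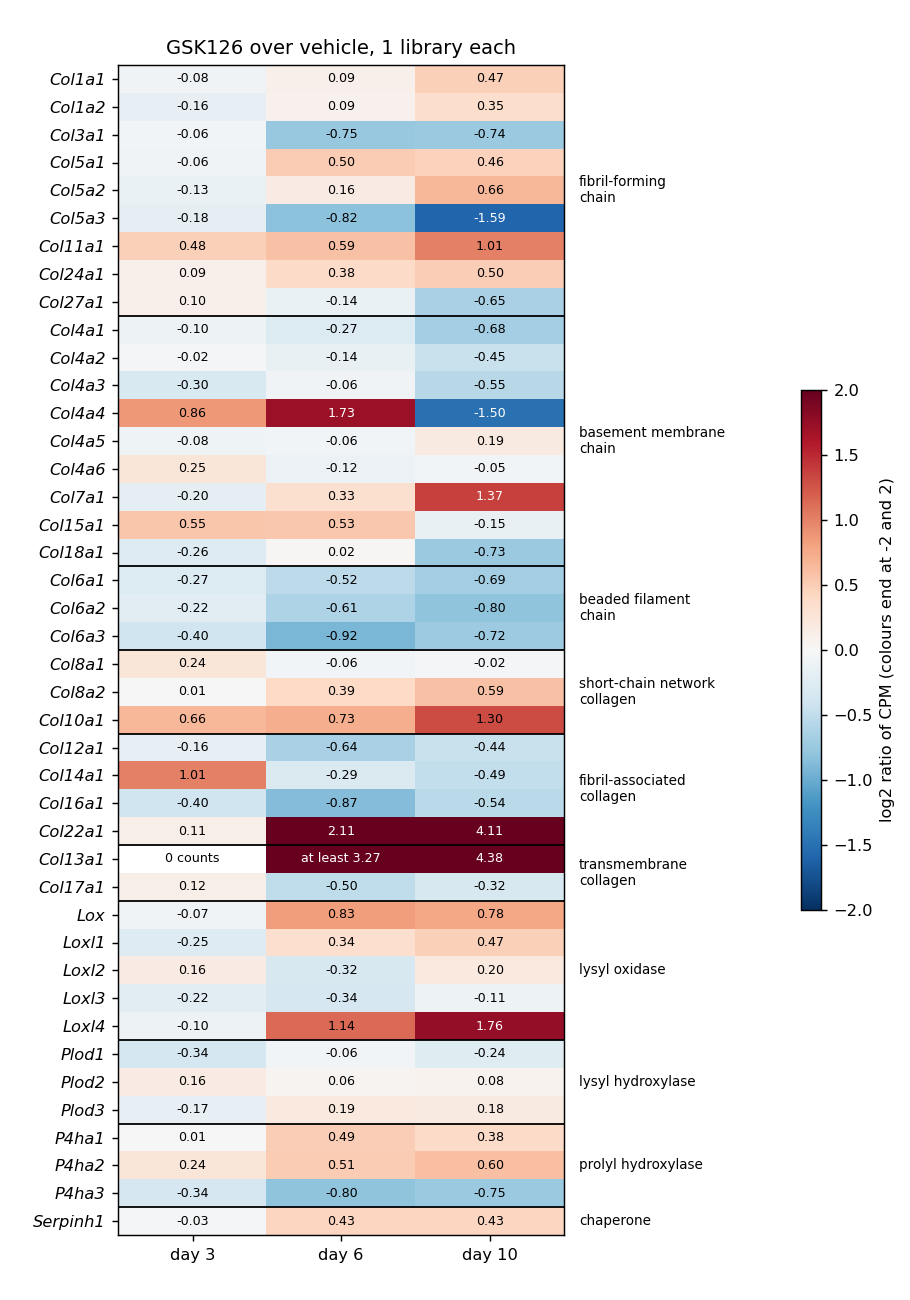
Log2 ratio of TMM-normalized CPM, GSK126 over vehicle, for the 42 genes (rows, grouped by role) on each day (columns), 1 library each; red is higher and blue lower with GSK126, and colours end at -2 and 2. Col22a1 reached 4.11 and Col5a3 -1.59 on day 10, while on day 3 no gene with at least 1 CPM reached 1 or -1.

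The chains of type I collagen, the main fibril of bone, were similar in both treatments on days 3 and 6 and higher with GSK126 on day 10. Col1a1 (mm10 chr11:94936270-94951856) had 28282, 36243 and 32892 CPM with GSK126 on days 3, 6 and 10, against 29816, 33949 and 23743 CPM with vehicle. Col1a2 (chr6:4505697-4541543) had 26586, 37343 and 38093 CPM with GSK126, against 29758, 35165 and 29802 CPM with vehicle. For both genes the ranges overlapped, and the day 10 ratio was 1.39-fold for Col1a1 and 1.28-fold for Col1a2. The fitted differences were 0.16 ± 0.17 and 0.09 ± 0.16 (log2 ± SE, adjusted p = 0.662 and 0.819, edgeR). Without day 10 the fitted difference of Col1a2 was -0.038. The ratio of Col1a1 to Col1a2 in RPKM, which form a heterotrimer, was close in both treatments, at 1.16, 1.06 and 0.945 with GSK126 and 1.1, 1.06 and 0.872 with vehicle.

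Type III collagen, which copolymerizes with type I in soft connective tissue, differed in the other direction. Col3a1 (chr1:45311538-45349706) had 8307, 6766 and 4815 CPM with GSK126, against 8672, 11397 and 8037 CPM with vehicle. It was lower with GSK126 on each day, and only the GSK126 library of day 3 lay above a vehicle library. The ratio was 0.958-fold on day 3, 0.594-fold on day 6 and 0.599-fold on day 10, and the fitted difference was -0.52 ± 0.18 (adjusted p = 0.198). By RPKM, Col3a1 stood at rank 18, 44 and 77 with GSK126, against 15, 12 and 44 with vehicle. The ratio of Col3a1 to Col1a1 in RPKM, a pair chosen after the values were seen, was 0.248, 0.158 and 0.124 with GSK126, against 0.246, 0.283 and 0.286 with vehicle.

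The promoter windows of Col1a2 and Col3a1 are printed because these abundant fibril genes differed in opposite directions on day 10, in 1 library per treatment. Neither gene was called for GSK126 by edgeR. Both are RefSeq windows on GRCm38.p6, from 250 bases before to 50 after the start, on the plus strand, at chr6:4505368-4505667 and chr1:45311288-45311587. Capitals mark GGGCGG (GC box), CCAAT and TATAAA, searched on both strands. The Col1a2 window held 2 GC boxes, 2 CCAAT boxes and 13 CpG, and the Col3a1 window held 1 TATAAA and 0 CpG. TATAAA was present in 13.6% of 32851 RefSeq windows of this length, CCAAT in 37.4% and the GC box in 35.7%. Of the 31 collagen genes with a window, 6 (19.4%), 11 (35.5%) and 21 (67.7%) held them. The median CpG number was 16 in these genes and 7 in all windows. A match is only a string of letters and says nothing on binding.
Col1a2: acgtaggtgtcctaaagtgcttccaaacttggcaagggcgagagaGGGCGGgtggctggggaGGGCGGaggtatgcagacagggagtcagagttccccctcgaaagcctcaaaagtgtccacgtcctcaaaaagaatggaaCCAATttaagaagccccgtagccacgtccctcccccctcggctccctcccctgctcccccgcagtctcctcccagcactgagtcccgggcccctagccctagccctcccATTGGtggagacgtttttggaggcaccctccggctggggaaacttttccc
Col3a1: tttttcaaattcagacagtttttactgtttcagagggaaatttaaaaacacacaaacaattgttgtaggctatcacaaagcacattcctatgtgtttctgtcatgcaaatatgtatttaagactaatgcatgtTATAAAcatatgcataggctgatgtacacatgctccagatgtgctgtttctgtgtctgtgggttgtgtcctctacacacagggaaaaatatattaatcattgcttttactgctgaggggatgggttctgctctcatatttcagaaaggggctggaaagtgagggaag

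Type V collagen sets fibril number and diameter, and its 3 chains did not move together. Col5a1 had 1493, 2647 and 2196 CPM with GSK126, against 1560, 1868 and 1598 CPM with vehicle, and Col5a2 had 2858, 3961 and 5057 CPM with GSK126, against 3119, 3544 and 3196 CPM with vehicle. Both were slightly lower with GSK126 on day 3 and higher on days 6 and 10, with fitted differences of 0.30 ± 0.14 and 0.23 ± 0.17 (adjusted p = 0.314 and 0.522). Col5a3 had 125.5, 141.3 and 76.0 CPM with GSK126, against 142.6, 249.5 and 229 CPM with vehicle. All 3 GSK126 libraries lay below all 3 vehicle libraries, and the day 10 ratio of 0.332-fold was the only decrease past 2-fold with at least 1 CPM. Its fitted difference was -0.86 ± 0.26 (adjusted p = 0.161). The ratio of Col5a3 to Col5a1 in RPKM, also chosen after the values were seen, was 0.116, 0.0737 and 0.0478 with GSK126, against 0.126, 0.184 and 0.198 with vehicle.

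Col11a1 is a chain of type XI collagen that nucleates cartilage fibrils and also assembles with type V chains. Of the 41 collagen genes tested, it alone (2.44%) had every GSK126 library above every vehicle library, where 6.27% of all genes did. Col11a1 had 1012, 1343 and 1966 CPM with GSK126, against 727.7, 892.2 and 972.7 CPM with vehicle. The ratio was 1.39-fold on day 3, 1.51-fold on day 6 and 2.02-fold on day 10, and the fitted difference was 0.69 ± 0.13 (adjusted p = 0.0706). By DESeq2 the adjusted p was 6.69e-05. Its ratio to Col5a1 in RPKM, a pair chosen after the values were seen, was 0.783, 0.586 and 1.03 with GSK126, against 0.539, 0.552 and 0.703 with vehicle. The 5 cartilage markers summed to 595, 285 and 130 CPM with GSK126, against 243, 93 and 83.4 CPM with vehicle, mostly Col2a1. Of the others, Col9a1 (0.614, 7.68 and 3.84 CPM with GSK126, against 0.104, 0.0975 and 0.062 CPM with vehicle) and Matn1 (0.158, 1.43 and 0.361 CPM with GSK126, against 0, 0.156 and 0.227 CPM with vehicle) were higher with GSK126 on each day. Sox9 stood at 33, 30.2 and 19.9 CPM with GSK126, against 36.5, 36.4 and 24.4 CPM with vehicle, and Acan was at 0 in all 6 libraries. No cartilage marker passed the threshold for GSK126 (adjusted p = 0.0504 for Col9a1, 0.0594 for Col2a1, 0.191 for Matn1 and 0.191 for Sox9). Their part in the Col11a1 difference was not tested.

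The other fibril-forming chains were less abundant. Col24a1, expressed in developing bone in mouse, had 13.2, 36.2 and 78.9 CPM with GSK126, against 12.3, 27.8 and 55.9 CPM with vehicle. It was higher with GSK126 on each day, by 0.33 ± 0.10 in the fit (adjusted p = 0.165), with overlapping ranges. Col27a1, a chain best known from cartilage, had 131.1, 120.2 and 90.6 CPM with GSK126, against 122.6, 132.3 and 141.8 CPM with vehicle, so that the treatments separated on day 10 (0.639-fold).

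**Figure D3:**
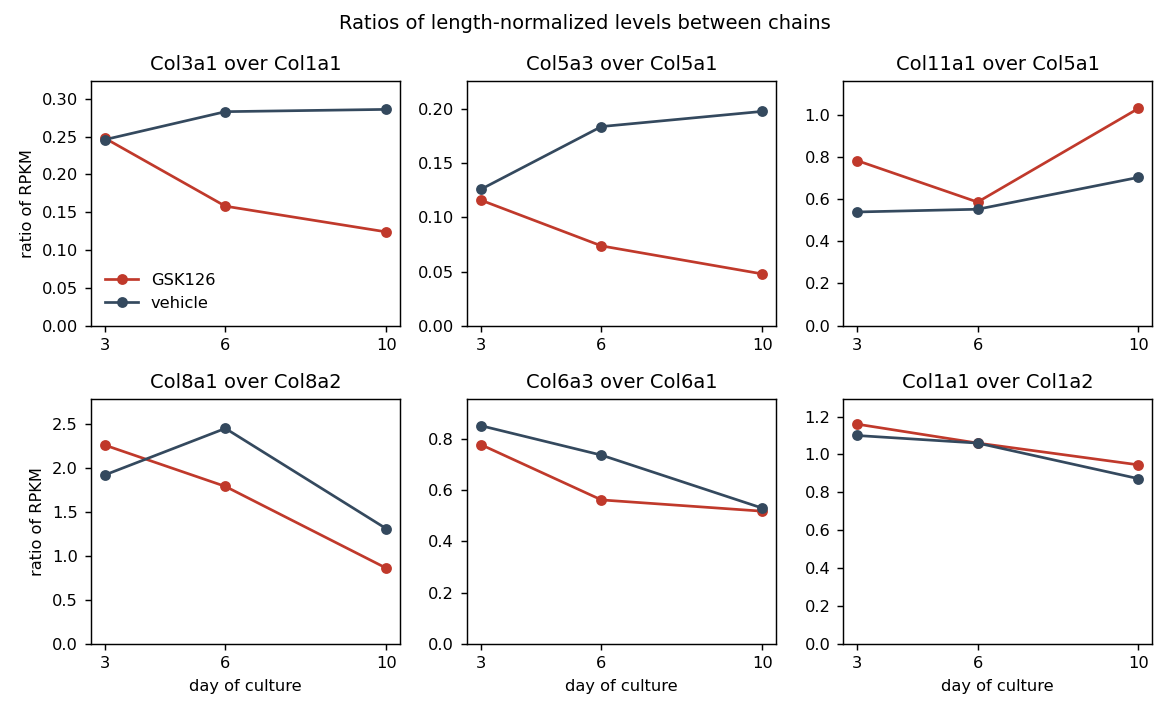
Ratio of RPKM between the chains named above each panel (y axis) on days 3, 6 and 10 (x axis), 1 library per point, GSK126 in red and vehicle in dark blue. Col3a1 over Col1a1 and Col5a3 over Col5a1 lay close together on day 3 and apart on day 10 (0.124 against 0.286 and 0.0478 against 0.198), while Col1a1 over Col1a2 stayed close throughout.

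All 3 type VI chains, which form beaded microfilaments around cells, were lower with GSK126 on every day. Col6a1 had 1922, 1828 and 1330 CPM with GSK126, against 2322, 2630 and 2143 CPM with vehicle. Col6a2 had 1521, 1475 and 963 CPM with GSK126, against 1769, 2258 and 1676 CPM with vehicle. Col6a3 had 4076, 2802 and 1878 CPM with GSK126, against 5396, 5287 and 3095 CPM with vehicle. For Col6a1 and Col6a2 the treatments did not overlap, while for Col6a3 the GSK126 library of day 3 lay above the vehicle library of day 10. Among all genes tested, 5.94% had every GSK126 library below every vehicle library, and among the collagen genes 7 did (17.1%), namely Col5a3, Col4a1, Col4a2, Col6a1, Col6a2, Col12a1 and Col16a1. The opposite held for 1 collagen gene (2.44%) and for 6.27% of all genes. The fitted differences were -0.50 ± 0.11 for Col6a1, -0.54 ± 0.13 for Col6a2 and -0.68 ± 0.13 for Col6a3 (adjusted p = 0.100, 0.116 and 0.0763). DESeq2 put all 3 past the threshold, with adjusted p of 0.00168, 0.00392 and 2.87e-05. Together the 3 chains held 0.796%, 0.594% and 0.4% of all counts with GSK126, against 0.982%, 0.997% and 0.688% with vehicle. Per length, Col6a1 over Col6a2 stayed between 1.16 and 1.29 with GSK126 and between 1.09 and 1.23 with vehicle. Col6a3 over Col6a1 was 0.778, 0.562 and 0.518 with GSK126, against 0.852, 0.737 and 0.53 with vehicle.

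A promoter window of each type VI gene is printed because the genes were lower together. They lie on the minus strand of GRCm38.p6, at chr10:76725995-76726294 (Col6a1), chr10:76623355-76623654 (Col6a2) and chr1:90843922-90844221 (Col6a3), and Col6a1 and Col6a2 are neighbours on chromosome 10. Capitals mark the same motifs as above. RefSeq lists a second Col6a2 window (chr10:76623581-76623880), not printed, with 1 GC box and 6 CpG. The Col6a2 window printed held 3 GC boxes, overlapping in part and read on the opposite strand as CCGCCC, and 16 CpG. The windows of Col6a1 and Col6a3 held none of the 3 motifs and 3 CpG each, so the letters searched for were not common to the 3 printed windows.
Col6a1: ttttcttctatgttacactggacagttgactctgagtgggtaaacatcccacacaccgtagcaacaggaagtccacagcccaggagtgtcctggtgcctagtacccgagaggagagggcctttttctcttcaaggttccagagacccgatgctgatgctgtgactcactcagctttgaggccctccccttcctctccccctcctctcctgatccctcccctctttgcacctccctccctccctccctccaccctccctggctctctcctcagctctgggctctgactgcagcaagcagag
Col6a2: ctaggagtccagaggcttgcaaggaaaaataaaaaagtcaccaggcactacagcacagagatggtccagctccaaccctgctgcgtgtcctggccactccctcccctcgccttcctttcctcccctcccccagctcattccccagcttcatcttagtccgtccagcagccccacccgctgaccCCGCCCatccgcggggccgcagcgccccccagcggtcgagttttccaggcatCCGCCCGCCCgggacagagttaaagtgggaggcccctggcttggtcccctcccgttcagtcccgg
Col6a3: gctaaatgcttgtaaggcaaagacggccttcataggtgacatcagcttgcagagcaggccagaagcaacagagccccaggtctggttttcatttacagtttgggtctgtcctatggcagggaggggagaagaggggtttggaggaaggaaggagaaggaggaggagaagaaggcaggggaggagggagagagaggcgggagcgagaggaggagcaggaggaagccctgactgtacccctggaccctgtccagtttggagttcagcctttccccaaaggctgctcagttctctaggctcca

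**Figure D4:**
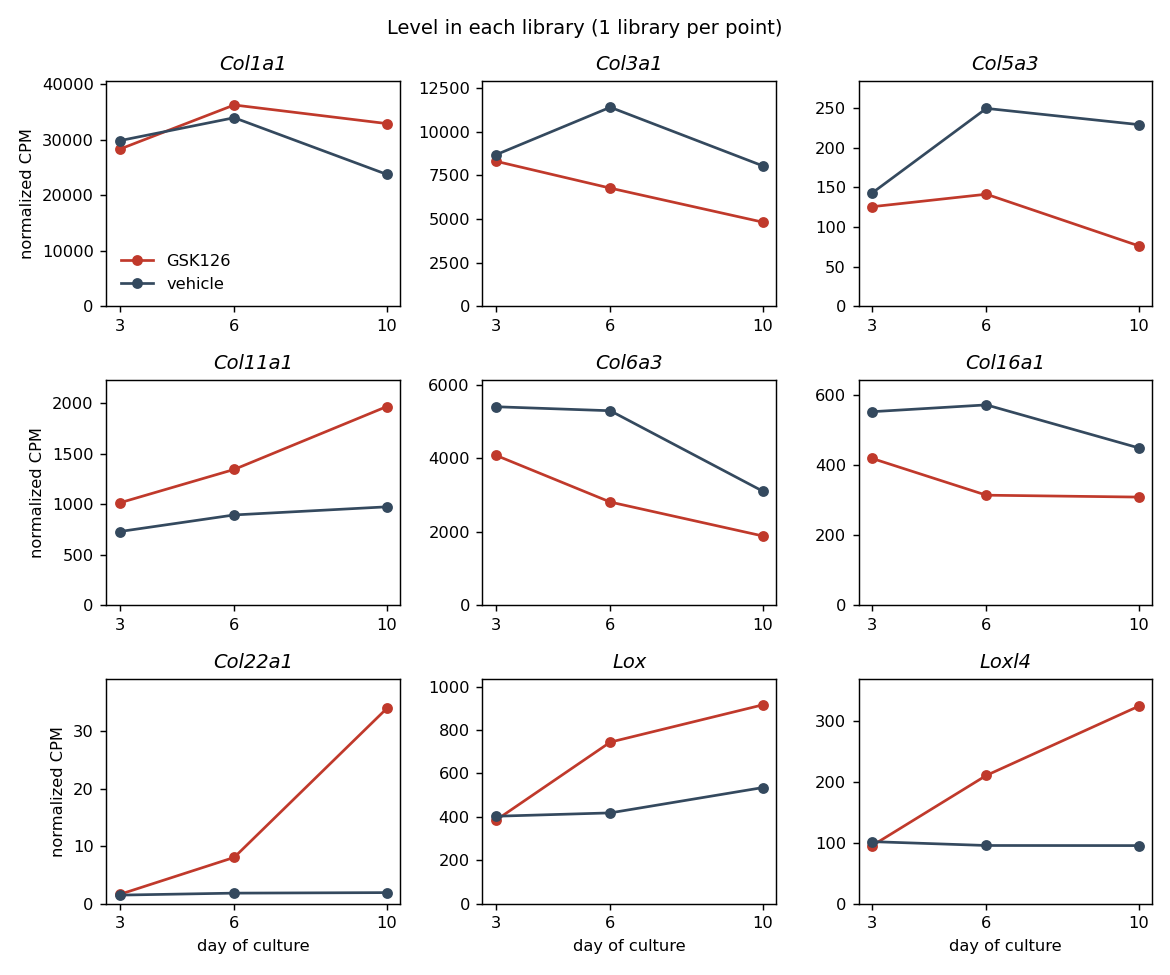
TMM-normalized CPM (y axis, starting at 0) by day of culture (x axis) for 9 collagen genes, 1 library per point, GSK126 in red and vehicle in dark blue. Col3a1, Col5a3, Col6a3 and Col16a1 lay lower and Col11a1 higher with GSK126 on every day, and Col22a1, Lox and Loxl4 separated on days 6 and 10.

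Among the fibril-associated collagens, which decorate type I fibrils, the abundant ones were lower with GSK126. Col12a1 had 2794, 2036 and 2224 CPM with GSK126, against 3120, 3175 and 3025 CPM with vehicle, and its fitted difference was -0.41 ± 0.12 (adjusted p = 0.159). Col16a1 had 418.4, 313.3 and 307.9 CPM with GSK126, against 551.4, 570.9 and 447.9 CPM with vehicle, with a fitted difference of -0.60 ± 0.11 (adjusted p = 0.0706). In both genes the treatments did not overlap, and the gap was widest on day 6. Col14a1 had 12 to 36 counts with GSK126 and 12 to 46 with vehicle, too few to show a difference at this depth.

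Col22a1, a fibril-associated collagen of tissue junctions such as that of muscle and tendon, had the widest ratio of the genes tested. It had 1.63, 8.06 and 34.0 CPM with GSK126, against 1.51, 1.85 and 1.94 CPM with vehicle. The libraries were alike on day 3, and those of GSK126 stood apart on days 6 and 10, the later of them taken after the compound had been withdrawn. The day 10 ratio was 17.3-fold (log2 4.11, exact 95% interval 3.83 to 4.44, counting error only). The fitted difference was 2.17 ± 0.77 (adjusted p = 0.216). By treatment alone, Col22a1 on day 10 over day 3 was 4.36 (log2) with GSK126 and 0.36 with vehicle. The transmembrane collagen Col13a1 (chr10:61838498-61979108), found at cell junctions, had 0, 56 and 158 counts with GSK126, against 0, 0 and 6 with vehicle. On day 6 it was at least 9.67-fold higher with GSK126, against a floor of 3 fragments in the vehicle library. Fragments were taken as counts divided by 2, because every count was even. The exact 95% interval of the day 6 ratio, which also covers the counting error of the GSK126 library, began lower, at log2 2.88. On day 10 the ratio was 20.9-fold (log2 4.38, interval 3.16 to 7.07). Skeletal muscle markers summed to 0.684, 0.263 and 0.127 CPM with GSK126, against 0.745, 0.0585 and 0.248 CPM with vehicle, so that they were near 0 in every library. Col17a1, a collagen of epithelial attachment, had 3.31 to 3.83 CPM with GSK126 and 3.52 to 5.42 CPM with vehicle.

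The type IV chains Col4a1 and Col4a2, which form the network of most basement membranes, were lower with GSK126 in all libraries. Col4a1 (chr8:11198423-11312826) had 167.8, 179.4 and 146.6 CPM with GSK126, against 179.5, 216.2 and 235.2 CPM with vehicle. Col4a2 (chr8:11312829-11449287) had 155.8, 156.1 and 138.1 CPM with GSK126, against 157.7, 172.6 and 188.3 CPM with vehicle. The groups touched almost at the highest GSK126 and the lowest vehicle library, and the gap was widest on day 10, at 0.623-fold and 0.733-fold. The fitted differences were -0.35 ± 0.13 and -0.20 ± 0.10 (adjusted p = 0.219 and 0.352). The genes are transcribed away from each other, and the RefSeq starts lie 21 bases apart. The Col4a1 window (chr8:11312777-11313076, minus strand, GRCm38.p6) is printed with capitals for the 78 bases it shares with the Col4a2 window, and it held 37 CpG.
Col4a1: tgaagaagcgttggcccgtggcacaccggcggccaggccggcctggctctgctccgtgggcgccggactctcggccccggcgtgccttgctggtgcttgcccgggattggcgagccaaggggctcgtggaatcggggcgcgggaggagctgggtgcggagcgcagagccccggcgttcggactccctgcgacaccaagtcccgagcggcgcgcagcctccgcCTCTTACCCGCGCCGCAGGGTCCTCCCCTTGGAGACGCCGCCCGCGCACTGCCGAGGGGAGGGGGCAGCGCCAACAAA

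The other basement membrane genes differed among themselves. Col15a1, a chain of the outer basement membrane zone, had 64.8, 144.7 and 77.2 CPM with GSK126, against 44.2, 100 and 85.5 CPM with vehicle, higher on days 3 and 6 and lower on day 10. Col18a1, the source of endostatin, had 18.6, 40.3 and 35.4 CPM with GSK126, against 22.2, 39.6 and 58.9 CPM with vehicle. Col7a1, the chain of the anchoring fibrils of skin, had 4.14, 3.58 and 7.13 CPM with GSK126, against 4.76, 2.85 and 2.75 CPM with vehicle, so that only day 10 was past 2-fold (2.58-fold). Its fitted difference was 0.49 ± 0.31 (adjusted p = 0.458). Col4a6 had 68.9, 33.1 and 25.2 CPM with GSK126, against 58.0, 35.9 and 26.1 CPM with vehicle, and Col4a5, its neighbour on chromosome X, had 192.4, 145.1 and 149.6 CPM with GSK126, against 203.6, 151.2 and 131.6 CPM with vehicle. Both X-linked chains overlapped between treatments. Col4a3 and Col4a4 had at most 2.01 CPM in any library.

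The short-chain collagens Col8a1 and Col8a2, which form hexagonal networks, lay closer together in level on day 10 than on day 3 in both treatments. Col8a1 had 871.7, 781.7 and 708.4 CPM with GSK126, against 738.8, 813.9 and 716.6 CPM with vehicle. Col8a2 had 327, 370 and 697.6 CPM with GSK126, against 325.4, 282.1 and 462.6 CPM with vehicle, 1.51-fold on day 10. Per length, Col8a1 over Col8a2 was 2.26, 1.79 and 0.861 with GSK126, against 1.92, 2.45 and 1.31 with vehicle, lowest on day 10 in both treatments. Col10a1, the collagen of hypertrophic cartilage, had 48, 30 and 372 counts with GSK126, against 30, 18 and 154 with vehicle, a day 10 ratio of 2.46-fold and a fitted difference of 0.98 ± 0.26 (adjusted p = 0.130). It lies within Nt5dc1, which had 1530 to 2178 counts. The library kit does not mark strand, so that reads of overlapping genes cannot be told apart, and the Col10a1 values are uncertain for that reason.

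Of the 5 lysyl oxidases, which start crosslinking, Lox and Loxl4 were higher with GSK126 on days 6 and 10. Lox had 384.4, 744.4 and 916.3 CPM with GSK126, against 403.1, 418.6 and 535.3 CPM with vehicle. Loxl4 (chr19:42592279-42612806) had 94.97, 210.3 and 323.9 CPM with GSK126, against 101.8, 95.5 and 95.3 CPM with vehicle. On day 3 both were slightly lower with GSK126, so that the groups overlapped, and on day 10 the ratios were 1.71-fold for Lox and 3.4-fold for Loxl4. The fitted differences were 0.51 ± 0.19 and 0.94 ± 0.35 (adjusted p = 0.233 and 0.231). Without the day 3 libraries, Loxl4 was 1.46 higher (log2, adjusted p = 0.0463) and passed the threshold. Loxl1 had 20.0, 23.1 and 29.3 CPM with GSK126, against 23.9, 18.2 and 21.1 CPM with vehicle. Loxl2 was low, at 4.09, 2.85 and 3.37 CPM with GSK126 and 3.65, 3.55 and 2.93 CPM with vehicle, with overlapping ranges. Loxl3 had 65.6 to 81.7 CPM with GSK126 and 78.6 to 94.96 CPM with vehicle, and it overlaps Htra2. The 5 genes together held 0.062%, 0.102% and 0.129% of all counts with GSK126, against 0.0649%, 0.0606% and 0.073% with vehicle. Per length, Lox was the most abundant of the 5 in every library, with 195.1 RPKM on day 10 with GSK126 and 118.7 RPKM with vehicle.

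Of the prolyl hydroxylase catalytic subunits, P4ha1 and P4ha2 were higher and P4ha3 lower with GSK126. P4ha1 had 111.7, 279.6 and 258.5 CPM with GSK126, against 111.2, 199.5 and 198.3 CPM with vehicle. P4ha2 had 53.7, 127.7 and 120.1 CPM with GSK126, against 45.5, 89.7 and 79.4 CPM with vehicle. P4ha3 had 96.6, 46.0 and 61.7 CPM with GSK126, against 122.3, 80.3 and 103.5 CPM with vehicle. P4ha2 and P4ha3 differed in the same direction on all 3 days, with overlap because each also varied between days, and P4ha1 was nearly equal on day 3. The fitted differences were 0.29 ± 0.11 for P4ha1, 0.45 ± 0.09 for P4ha2 and -0.63 ± 0.11 for P4ha3 (adjusted p = 0.240, 0.0820 and 0.0639). Without the day 3 libraries P4ha3 passed the threshold, at -0.77 (adjusted p = 0.0412). Of the lysyl hydroxylases, none passed for GSK126. Plod2, which hydroxylates the telopeptide lysines, had 135.5, 144.7 and 163.5 CPM with GSK126, against 121.1, 138.7 and 155.1 CPM with vehicle, a fitted difference of 0.10 ± 0.07 (adjusted p = 0.499). Plod1, which acts on helical lysines, had a fitted difference of -0.21 ± 0.08 and Plod3, which also glycosylates, one of 0.07 ± 0.09. Plod2 overlaps B430319G15Rik and Plod3 overlaps Znhit1. Serpinh1, the procollagen chaperone, had 1279, 2260 and 1398 CPM with GSK126, against 1304, 1673 and 1038 CPM with vehicle, highest on day 6 in both treatments. It was nearly equal on day 3 and 1.35-fold on days 6 and 10, with a fitted difference of 0.28 ± 0.12 (adjusted p = 0.298).

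On day 10 against day 3, 12 of these genes passed the threshold (29.3%), where 26.6% of all genes tested did. With both treatments together, 9 of the 41 genes rose (22%) and 3 fell (7.32%), where 14.1% of all genes tested rose and 12.5% fell. The largest rise was in Col10a1 (log2 2.94 ± 0.31, adjusted p = 0.0109), followed by Col24a1 (2.38 ± 0.13, adjusted p = 0.0036) and Col18a1 (1.18 ± 0.19, adjusted p = 0.0158). Col24a1 and Col10a1 mark bone and hypertrophic cartilage, and Col18a1 belongs to basement membranes. P4ha1 (1.02 ± 0.14), P4ha2 (0.98 ± 0.11), Col8a2 (0.80 ± 0.16), Col11a1 (0.69 ± 0.16), Plod1 (0.55 ± 0.10) and Plod2 (0.31 ± 0.08) also rose, with adjusted p of 0.0116 to 0.0469. Plod2 no longer passed with library size in place of TMM (adjusted p = 0.129), with no filter on low counts (0.0601) or without day 6 (0.0634). The genes that fell were Col4a6 (-1.31 ± 0.12, adjusted p = 0.0098), Col6a3 (-0.97 ± 0.16, adjusted p = 0.0169) and Col4a5 (-0.49 ± 0.10, adjusted p = 0.0265). Between days 3 and 6, 3 genes rose (7.32%, where 0.516% of all genes did) and 0 fell (0.237% of all genes, and 0.753% in either direction). They were Col24a1 (1.31, adjusted p = 0.0309), P4ha2 (1.11, adjusted p = 0.0336) and P4ha1 (1.08, adjusted p = 0.0489), which did not pass with counts divided by 2 (0.0518) or without day 10 (0.0714). At an unadjusted p below 0.05, 8 were higher (19.5%) and 4 lower (9.76%) on day 6, where 13.7% and 12.5% of all genes were, and DESeq2 called 8 higher and 3 lower, where it called 6.86% and 5.08% of all genes. Col1a1 and Col1a2 were not called on day 10, with -0.05 ± 0.21 and 0.26 ± 0.20.

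The GSK126 difference on day 10, after withdrawal of the compound, was set against that of days 3 and 6. None of the 41 genes passed the threshold by edgeR, limma-voom or DESeq2, and edgeR called 0% of all genes, with 1 residual degree of freedom. At an unadjusted p below 0.05, 2 collagen genes were higher on day 10 (Col7a1 and Col22a1) and 6 lower, and 7.01% of all genes were past it in either direction. Withdrawal and culture time cannot be told apart here.

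Genes that fold, process or break down collagen were counted from textbook lists. Of 25 folding and processing genes in the table, 22 were tested, and 0 were called higher and 0 lower with GSK126. Over all genes 1.01% were called higher and 0.272% lower, so that 0 calls in a list this short say little. The median fitted difference was 0.14, against -0.000763 over all genes, and 19 of the 22 values were above 0. On day 10 against day 3, 5 rose (22.7%) and 3 fell (13.6%), where 14.1% and 12.5% of all genes did. Among those that rose were Adamts2 (0.70), which removes the N-propeptide, the proline isomerase Ppib (0.59) and Leprel2 (0.57), a prolyl hydroxylase family member. Those that fell were Pcolce2 (-1.05), an enhancer of C-propeptide removal, the chaperone Hspa5 (-0.62) and Mia3 (-0.38), which loads procollagen for export. Of 14 uptake and breakdown genes, 0 were called with GSK126 in either direction, where 1.28% of all genes were, with a median of 0.0786. On day 10 the collagenase Mmp13 (4.99), the protease Fap (2.49) and the cathepsin Ctsk (1.69) rose, and the collagen receptors Itga1 (-1.01) and Ddr2 (-0.33) fell, which is 21.4% and 14.3% of the 14. Mmp13 had 9.93, 48.5 and 238 CPM with GSK126, against 3.48, 22 and 150 CPM with vehicle, and its GSK126 term just missed the threshold (adjusted p = 0.0510).

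Few of the collagen genes with a RefSeq start carried an H3K27me3 island near it in either treatment. The authors called 24947 islands covering 166.7 Mb with GSK126 and 34498 islands covering 147.9 Mb with vehicle, each on 1 ChIP library. Of the 31 genes with a RefSeq start, 1 had an island within 5 kb with GSK126 (Col4a4, 3.23%), where 16.5% of all genes did. With vehicle it was 4 (Col4a4, Col15a1, Col27a1 and P4ha2, 12.9%), where 20.3% of all genes did. The authors' fold over input was below 3 for every island within 5 kb of these starts. At Col15a1, 0 GSK126 and 2 vehicle islands lay within 5 kb. The nearer vehicle island, 589 to 2388 bases after the start (chr4:47208601-47210400), held 37 ChIP and 25 input reads and had a fold of 2.49. The other, upstream (chr4:47201201-47207400), held 76 ChIP and 107 input reads. Its fold was 1.19, with an adjusted p of 0.0579 in the authors' SICER list, so that it was barely enriched. P4ha2 had 0 islands with GSK126 and an upstream vehicle island of 62 ChIP and 40 input reads (fold 2.6). The fitted RNA differences were 0.31 for Col15a1, 0.45 for P4ha2, -0.23 for Col27a1 and 0.45 for Col4a4. None passed the threshold (adjusted p = 0.335, 0.0820, 0.468 and 0.788, edgeR). Any link between these islands and RNA was not tested. Over gene bodies, 6 of the 42 genes had an island with GSK126 (14.3%, where 14.8% of all rows did), namely Col4a3, Col4a4, Col13a1, Col14a1, Col15a1 and Col22a1. With vehicle the same 6 genes and Col17a1 had one (16.7%, where 17.1% of all rows did). All of these 7 genes but Col15a1 and Col22a1 stood at 5.42 CPM or less in every library. Within Col22a1, 2 GSK126 islands had folds of 2.02 and 1.77, and 5 vehicle islands had folds of 1.61 to 3.92. Within Col13a1, 3 GSK126 islands had folds of 2.08 to 3.99 and 6 vehicle islands folds of 1.6 to 4.58. No island within the gene or 5 kb of the start was listed for the type VI chains, Col1a2, Col3a1, Col5a3 or Loxl4 in either treatment. The 11 genes without a RefSeq start are missing from the counts at starts. Among them, a vehicle island (chr15:55306801-55310400, fold 2.26) lay across an end of Col14a1, where GSK126 had none. The islands nearest the Col4a4 start, in both treatments, also lay within 5 kb of an end of Col4a3.

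The Col15a1 window (chr4:47207762-47208061, plus strand, RefSeq on GRCm38.p6) is printed because the vehicle island lies just downstream, with its 8 CpG in capitals.
Col15a1: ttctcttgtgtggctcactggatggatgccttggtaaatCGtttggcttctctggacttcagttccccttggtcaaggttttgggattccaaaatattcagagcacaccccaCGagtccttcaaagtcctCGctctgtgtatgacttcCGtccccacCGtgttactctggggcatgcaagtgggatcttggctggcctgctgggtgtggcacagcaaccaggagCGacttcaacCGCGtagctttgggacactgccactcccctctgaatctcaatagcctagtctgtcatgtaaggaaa

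**Figure D5:**
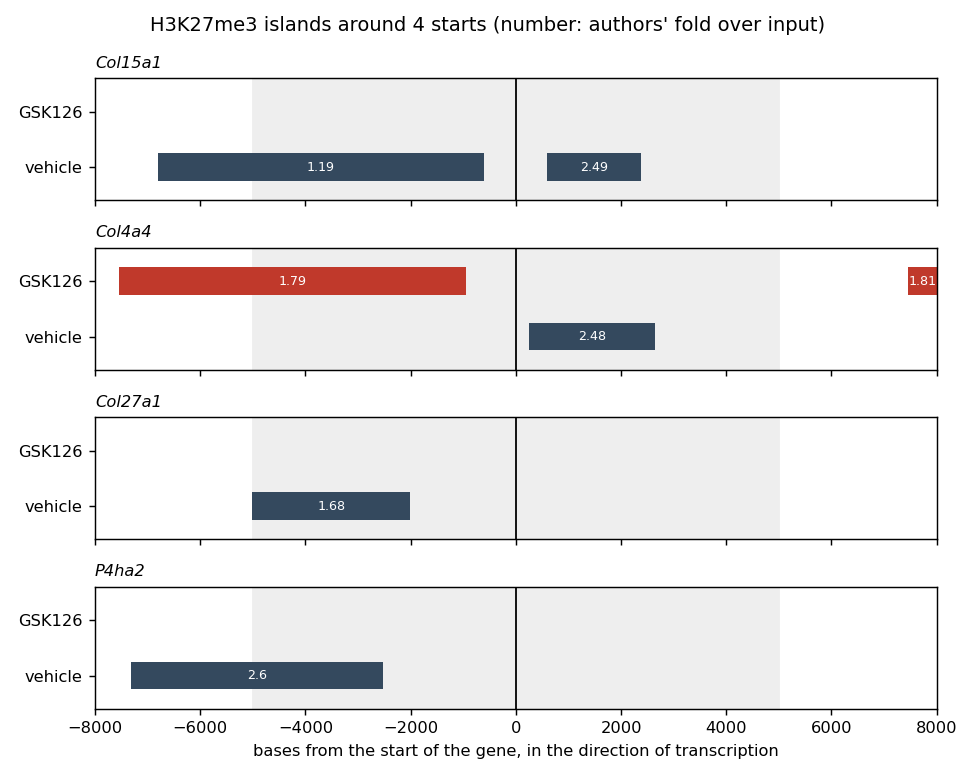
H3K27me3 islands as bars around the starts of Col15a1, Col4a4, Col27a1 and P4ha2 (x axis, bases from the start in the direction of transcription), GSK126 above vehicle, with the authors' fold over input written in each; grey marks 5 kb on either side. GSK126 had an island in the grey zone only at Col4a4, and vehicle had one at all 4.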

How the data were processed

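RNA was measured in 6 libraries and H3K27me3 chromatin with its input in 4 libraries of MC3T3 cells, grouped by treatment and day as the labels give them. Per the labels' protocols, RNA libraries came from the TruSeq v2 mRNA kit, which does not mark strand. Per the submitters' processing notes, the build was mm10 and the tools were TopHat2 2.0.6 and HTSeq 0.5.3p9, BWA 0.5.9 and SICER 1.1, besides CASAVA 1.9. How HTSeq and SICER were set, and which annotation was counted, is not given in the sources used here. As deposited, gene counts are raw whole numbers and every count was even, so that intervals and floors were taken on counts divided by 2 (fragments). That a fragment was entered as a pair of counts is an assumption. The authors' deposited RPKM values are counts per length and per a library total, and were used for ranks and for ratios between chains. The authors' island lists give ChIP and input reads, a p-value, an adjusted p-value and a fold (ratio) of ChIP over input for each island.

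Tests of the counts used edgeR 4.0.16 (R 4.3.3, TMM, filterByExpr on treatment, quasi-likelihood F test, Benjamini-Hochberg adjusted p below 0.05 over 14344 genes) with day and treatment as additive terms, which leaves 2 residual degrees of freedom. The treatment term thus rests on 3 pairs of libraries, of days 3, 6 and 10. The SE of a fitted difference was derived as its absolute value over the square root of the F statistic, as the test returns none. A further fit added the treatment difference on day 10. Daily ratios compared CPM after TMM scaling, adding a prior count of 2, with exact Clopper-Pearson 95% intervals, which cover counting error only. DESeq2 1.42.0, limma-voom (limma 3.58.1), library size, other filters and leaving out each day were alternatives. On simulated counts with 200 changed genes, 79% of 2-fold changes were found in the GSK126 term with 4.82% false calls, and 98.5% of 4-fold changes with 7.94% false calls. The simulated GSK126 differences were equal on all 3 days, so these shares do not hold for differences that grew with time.

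The genes and lists were chosen with earlier results of these data known. Values in every library are given for the 14 genes picked by role, for those past 2-fold on a day with at least 1 CPM, and for the 8 largest day 10 differences past the threshold. Of the other lists, up to 3 genes per direction are named. Further genes were described in full after their values were seen. Promoter windows are from RefSeq (GRCm38.p6, the build of mm10), where 31 of the 42 genes matched. An island counted at a start when at least 1 base lay within 5 kb.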

Additional observations from a re-analysis of the deposited data

Results flagged for a closer look

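In 4 genes, day 10 over day 3 went opposite ways in the treatments, by at least 0.25 (log2) in each, a limit chosen after the values were seen. Each course is 1 library over 1 library, and the difference between them was not tested. For Col5a3 the course was -0.723 with GSK126 and 0.683 with vehicle, a difference of -1.41. For Col7a1 it was 0.78 with GSK126 and -0.789 with vehicle, a difference of 1.57, on 266 to 672 counts per library. For Col4a4 it was -1.5 with GSK126 and 0.856 with vehicle, a difference of -2.36, and for Col14a1 it was -0.756 with GSK126 and 0.736 with vehicle, a difference of -1.49. Col4a4 had 14 to 62 counts with GSK126 and 18 to 44 with vehicle, and Col14a1 had 12 to 36 with GSK126 and 12 to 46 with vehicle, so that their courses rest on few fragments.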

How the results depend on the processing

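The GSK126 counts of 0 higher and 0 lower were the same under library size, limma-voom, no filter on low counts, counts divided by 2, library sizes without Rn45s and the collagen genes, no day term, and without day 6 or day 10. Over all genes tested, the fit with no day term called 0 higher and 0 lower. Leaving out day 10 gave 4 and 0, and leaving out day 6 gave 18 and 1. With so few calls anywhere, these settings could not tell the collagen genes from other genes. The remaining settings called 135 to 198 of all genes higher and 30 to 63 lower. DESeq2 called 2 higher and 7 lower, and without day 3 there was 1 higher and 1 lower. Over all genes, DESeq2 called 688 higher and 635 lower of 14344, and the fit without day 3 called 202 higher and 106 lower of 14340. For day 10 against day 3, library size in place of TMM gave 5 lower instead of 3, and this scaling moved the median of all genes to -0.107 (day 10) and -0.0996 (day 6). It also gave 2644 of all 14344 genes lower on day 10 instead of 1793. For day 6 against day 3, DESeq2 gave 8 higher and 3 lower, and library size, limma-voom and no filter gave 1 lower each. Over all genes, DESeq2 called 6.86% higher and 5.08% lower on day 6. Library size gave 74 of 14344 genes lower, limma-voom 40 of 14344 and no filter 52 of 18465. Fitted GSK126 differences changed sign without day 3 for Col4a6 (-0.078), Col8a1 (-0.032), Col14a1 (-0.398) and Loxl2 (-0.053), without day 6 for Col4a4 (-0.275, against 0.45 with all days), without day 10 for Col1a2 (-0.038), Col4a5 (-0.071) and Loxl2 (-0.074), and with no day term for Col14a1 (-0.033). None of these passed the threshold under any setting, and the cause was not tested. Starts with an island within 5 kb fell to 0 with GSK126 and 0 with vehicle at a fold of at least 3, and to 2 with vehicle within 1 kb. Shares over all genes were not counted at these limits. Day terms were not run without day 3, which is their baseline. The additive fit already pairs the libraries by day, and the fit with no day term is its unpaired counterpart. With 1 library per treatment and day, single days have no test, and genes of few counts such as Col4a4, Col14a1 and Col10a1 are limited by depth.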
